A study of Rattus norvegicus with 6 samples.

Results

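The BCL2 family, the proteins that keep the outer mitochondrial membrane closed or open it during apoptosis, was examined in cultured oligodendrocyte precursor cells (OPCs), the dividing glial cells that give rise to myelinating oligodendrocytes. The members were taken by gene name and not by a cutoff on a measured value, but with earlier results of these data known. They were the pro-survival genes Bcl2, Bcl2l1 and Mcl1, the effectors Bax and Bak1, and the BH3-only genes Bid, Bad, Bcl2l11, Bbc3 and Pmaip1. Of these 10 names, 8 were found among the 32883 genes of the table, and all 8 were among the 14670 genes that passed the filter on low counts. Mcl1 and Bbc3 were not analysed here. The OPCs came from pooled cerebral cortices of newborn (P0) Sprague Dawley rats and were shaken off a mixed glial culture after 7 days. The DMSO group received the solvent, and the ZJU-37 group received 5 µM ZJU-37, an inhibitor of the kinase RIPK1. Both groups were treated for 36 h by the sample labels and a figure legend of the study, while its Methods give a shorter time. Poly-A RNA of 3 libraries per group was sequenced, and the comparison asks how RIPK1 inhibition changes transcription in OPCs. The study calls the libraries biological repeats in its Methods and plate wells where it shows the comparison, and the labels do not say that they came from separate cultures, so the p-values measure the spread between these libraries, which may be technical.

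In apoptosis, cell stress raises or activates BH3-only proteins, which bind the groove of pro-survival members such as BCL2 and BCL-XL and free or directly activate BAX and BAK. Activated BAX and BAK form pores in the outer mitochondrial membrane, cytochrome c leaks out, and caspases are switched on. In the oligodendrocyte lineage, many newly formed cells die by apoptosis during development, and this pathway is distinct from the necroptosis that RIPK1 can start. Much of the control of these proteins lies in binding, cleavage and phosphorylation, which RNA levels do not show.

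Library totals were between 13935865 and 24097927 counts. Values below are CPM, that is, counts scaled to a library of 1000000 counts, with library sizes adjusted for composition by TMM. Those of a group are listed in the order of replicates 1, 2 and 3, ± marks the SD over the 3 libraries of a group, and p-values come from edgeR unless another tool is named. A level of 3 counts corresponds to at most 0.219 CPM. The OPC markers Pdgfra, Cspg4, Olig1, Olig2 and Sox10 were all detected, with a summed level between 2342 and 2783 CPM in the DMSO group and between 2851 and 4070 CPM in the ZJU-37 group. The markers of this list did not move together. Pdgfra, Cspg4 and Olig1 were higher in every ZJU-37 library than in any DMSO library, Olig2 overlapped, and Sox10 was lower in every ZJU-37 library (655 ± 81.8 CPM with DMSO and 430.2 ± 81.0 CPM with ZJU-37). Markers of other cells were present too. The summed level of 6 oligodendrocyte markers was between 11039 and 21850 CPM in the DMSO group and between 4638 and 9670 CPM in the ZJU-37 group, with no overlap. For 8 microglia markers it was between 1767 and 3021 CPM and between 1267 and 2617 CPM, and for 5 astrocyte markers between 320 and 659 CPM and between 207 and 418 CPM. Neuron markers summed to at most 300.2 CPM, and vascular and fibroblast markers to at most 93.0 CPM, with Cldn5 at 0 in every library. Their part in the results below was not tested. In such bulk libraries, fewer cells of a type and less RNA per cell cannot be told apart.

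With ZJU-37, Pmaip1 rose 1.68-fold and was the 1 member of 8 that passed an adjusted p-value of 0.05 in the edgeR quasi-likelihood test. No member was called lower. Bcl2 and Bax had higher values in every ZJU-37 library than in any DMSO library without passing the adjusted threshold, and the other 5 members overlapped between the groups. Over all tested genes, 9.43% were called higher and 5.58% lower, so 1 of 8 members is a share near that background. Groups that do not overlap in CPM were found in 19.0% of all tested genes in the higher direction and in 16.2% in the lower direction, beside 3 and 0 of the 8 members. Both groups carry replicate numbers, which were taken to pair the libraries because of correlations across genes in these same data. With the replicate number as a block, 2 members were called higher and 0 lower (16.2% and 15.9% of all tested genes), and the added member was Bax. At an unadjusted p-value under 0.05, 3 members were higher and 0 were lower, beside 16.2% and 12.5% of all tested genes. With the block at the same threshold, 3 were higher and 1, Bcl2l1, was lower (20.3% and 22.2% of all tested genes). After adjustment, 0 members were called lower with DESeq2 or limma-voom. The median log2 fold change of the 8 members was -0.02, against -0.03 for all tested genes. The plot of members by library shows these levels.

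**Figure D1:**
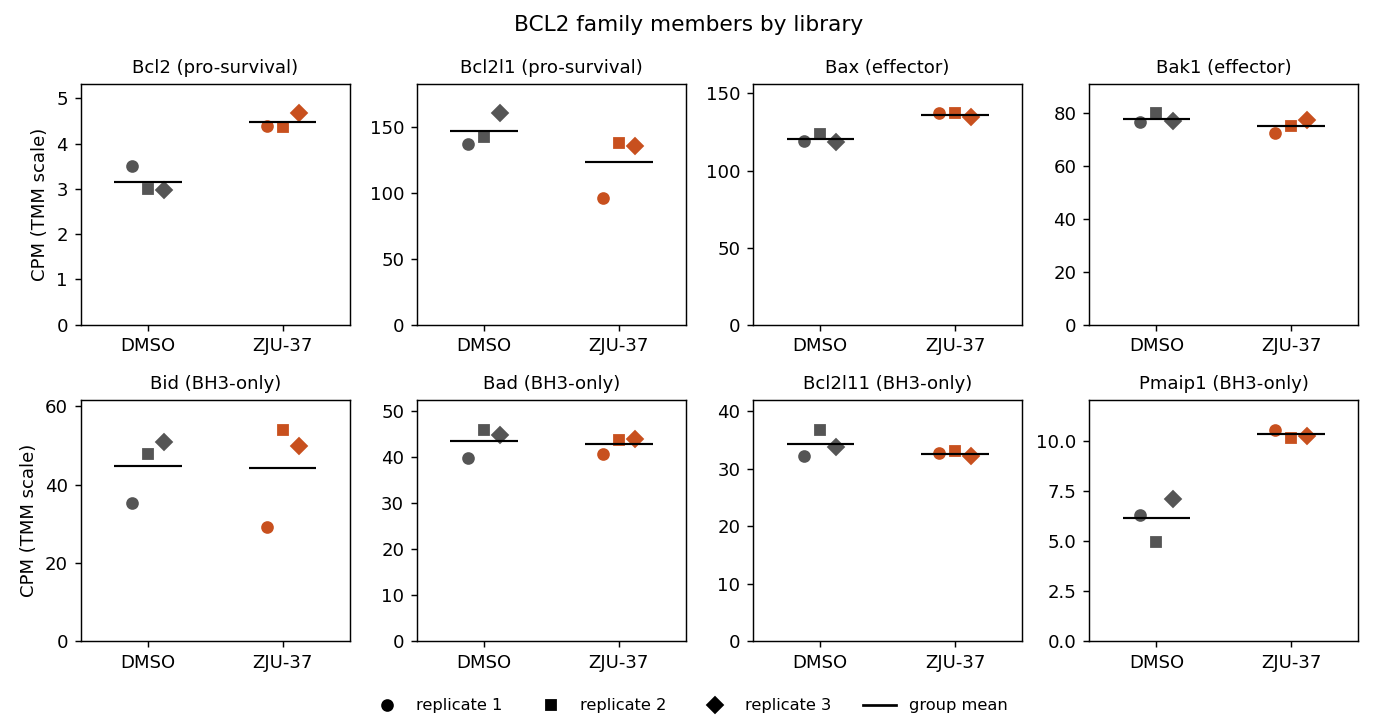
Expression of the 8 BCL2 family members in CPM (TMM scale, each vertical axis from 0), with 1 point per library, shaped by replicate number, and a line at the group mean of 3 libraries. Pmaip1, Bcl2 and Bax are the panels in which every ZJU-37 library lies above every DMSO library.

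Pmaip1 encodes NOXA, a BH3-only protein that binds mainly MCL1 and promotes its breakdown. The authors' table places it on chromosome 18 from 62174670 to 62181102 on the plus strand, with no genome build named. Its expression was 6.28, 4.97 and 7.11 CPM with DMSO and 10.5, 10.1 and 10.3 CPM with ZJU-37. The lowest ZJU-37 library lay above the highest DMSO library, and the ZJU-37 libraries lay closer to each other than the DMSO libraries did. The means were 6.12 ± 1.08 CPM and 10.3 ± 0.210 CPM, which amounts to a log2 fold change of 0.75 with a standard error of 0.16 (adjusted p = 0.0227, edgeR quasi-likelihood test, Benjamini-Hochberg adjustment). These values rest on between 86 and 248 counts per library. The pair differences were 0.75, 1.03 and 0.53 on the log2 scale for replicates 1, 2 and 3. The two-sided exact permutation test gave p = 0.1, the smallest value that 3 libraries against 3 allow, for Pmaip1, Bcl2 and Bax alike. With the replicate block the log2 fold change was 0.76 and the adjusted p-value 0.00273 in edgeR. Without the block, the call was sensitive to single libraries. The adjusted edgeR p-value was 0.0634 without DMSO replicate 1, 0.0586 without DMSO replicate 2, 0.0515 without ZJU-37 replicate 1, 0.0558 without ZJU-37 replicate 2 and 0.0718 without ZJU-37 replicate 3, and it was 0.0308 without DMSO replicate 3. Over these 6 fits the log2 fold change stayed between 0.62 and 0.88.

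The promoter sequences of Pmaip1 and of Bcl2l11, a BH3-only gene that did not pass the test, are shown to set the called BH3-only gene beside one that was not called, together with that of Bcl2. They are RefSeq sequences of assembly GRCr8 from 250 bases before to 50 bases after the annotated start, 5′ to 3′ on the strand of the gene, at chr18:62255720-62256019 (plus), chr3:135819792-135820091 (plus) and chr13:23366851-23367150 (minus). Capitals mark matches to any of 8 motifs searched on both strands.
Pmaip1: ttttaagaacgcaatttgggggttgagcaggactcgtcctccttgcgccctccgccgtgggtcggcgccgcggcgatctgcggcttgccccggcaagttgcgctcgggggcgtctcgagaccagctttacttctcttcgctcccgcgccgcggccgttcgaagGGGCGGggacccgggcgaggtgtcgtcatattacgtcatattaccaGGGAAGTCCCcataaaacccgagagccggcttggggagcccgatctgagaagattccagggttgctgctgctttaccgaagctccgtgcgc
Bcl2l11: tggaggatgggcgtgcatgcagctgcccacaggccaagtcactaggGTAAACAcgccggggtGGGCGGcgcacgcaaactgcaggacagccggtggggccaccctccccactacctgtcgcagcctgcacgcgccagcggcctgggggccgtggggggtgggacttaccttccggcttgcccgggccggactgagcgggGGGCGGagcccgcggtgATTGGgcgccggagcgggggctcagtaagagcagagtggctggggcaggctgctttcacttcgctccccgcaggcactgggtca
Bcl2: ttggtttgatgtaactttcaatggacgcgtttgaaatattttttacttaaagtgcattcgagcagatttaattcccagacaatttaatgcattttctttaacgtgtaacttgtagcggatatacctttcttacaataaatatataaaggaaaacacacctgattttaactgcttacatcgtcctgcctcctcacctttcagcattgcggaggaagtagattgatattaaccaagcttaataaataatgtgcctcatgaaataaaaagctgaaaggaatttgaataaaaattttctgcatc

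In the Pmaip1 sequence the capitals are a GC box (GGGCGG) that begins 87 bases before the start and a match to the NF-κB consensus that begins 41 bases before it. Of the 33469 promoters in the table, 33.1% hold a GC box and 4.18% an NF-κB consensus match. The Bcl2l11 sequence holds GC boxes at 188 and 51 bases, a CCAAT box (CCAAT, in 37.5% of promoters) at 34 bases and a FOXO site (GTAAACA, in 3.78%) at 204 bases before the start. The same letters were found on the other strand in the promoter of Bad, 118 bases before its start. No motif was matched in the Bcl2 sequence, whose GC content of 32.7% is below the lower quartile of all promoters (44.7%), while that of Pmaip1 is 63.3% and that of Bcl2l11 71.0% (upper quartile 60.3%). The other motifs searched were the MYC E-box (CACGTG, in 6.42% of promoters), the cyclic AMP response element (TGACGTCA, 1.83%), the AP-1 site (TGANTCA, 7.33%) and the E2F site (TTTGGCGC or TTTCCCGC, 1.45%), and none of the 11 promoter entries of the members matched them. The GC box and NF-κB patterns can overlap each other. A match describes letters in this window and is not a measured binding site. Bax and Bbc3 were not in the promoter table.

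The other BH3-only genes overlapped between the groups. Bcl2l11 (chromosome 3, 120726906 to 120764192, plus strand, in the coordinates of the table) encodes BIM, which binds all pro-survival members and can activate BAX directly. It had 32.3, 36.8 and 33.8 CPM with DMSO and 32.7, 33.1 and 32.2 CPM with ZJU-37, a log2 fold change of -0.07 (95% interval -0.25 to 0.10, edgeR adjusted p = 0.586). The level of Bcl2l11 was nearly even over all libraries, and the upper end of its interval lay below the lower end of that of Pmaip1 (0.37). Bad (chromosome 1, 222198534 to 222207453, plus strand) encodes a BH3-only protein that binds BCL2 and BCL-XL unless survival kinases phosphorylate it. It had 39.7, 45.9 and 44.7 CPM with DMSO and 40.7, 43.5 and 43.9 CPM with ZJU-37, a log2 fold change of -0.03 (95% interval -0.21 to 0.16, edgeR adjusted p = 0.868).

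Bid (chromosome 4, 153442218 to 153465203, minus strand), whose product links death receptors to mitochondria after cleavage by caspase-8, differed more between replicate numbers than between the groups. It had 35.4, 47.9 and 51.0 CPM with DMSO and 29.2, 54.0 and 49.8 CPM with ZJU-37. Replicate 1 was the lowest library of both groups. The means were 44.8 ± 8.25 CPM and 44.3 ± 13.3 CPM, a log2 fold change of -0.02 with a 95% interval of -0.62 to 0.59 (edgeR adjusted p = 0.979), the widest interval among the 8 members. The standard error was 0.25 without and 0.085 with the replicate block. Bcl2a1, a pro-survival member that is typical of haematopoietic cells, was likewise lowest in replicate 1, with 30.3, 50.1 and 53.4 CPM in the DMSO group and 22.1, 49.6 and 57.0 CPM in the ZJU-37 group. The summed level of all 8 microglia markers was lowest in replicate 1 as well, at 1767, 3021 and 2295 CPM with DMSO and 1267, 2617 and 1876 CPM with ZJU-37. None of the 8 markers was at 0. The marker sum was highest in replicate 2 of each group, while Bcl2a1 was highest in replicate 3 of each. In the Methods of the study, a first round of shaking served to remove microglia before the OPCs were collected. The part of microglia RNA in the levels of Bid and Bcl2a1 was not tested.

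**Figure D2:**
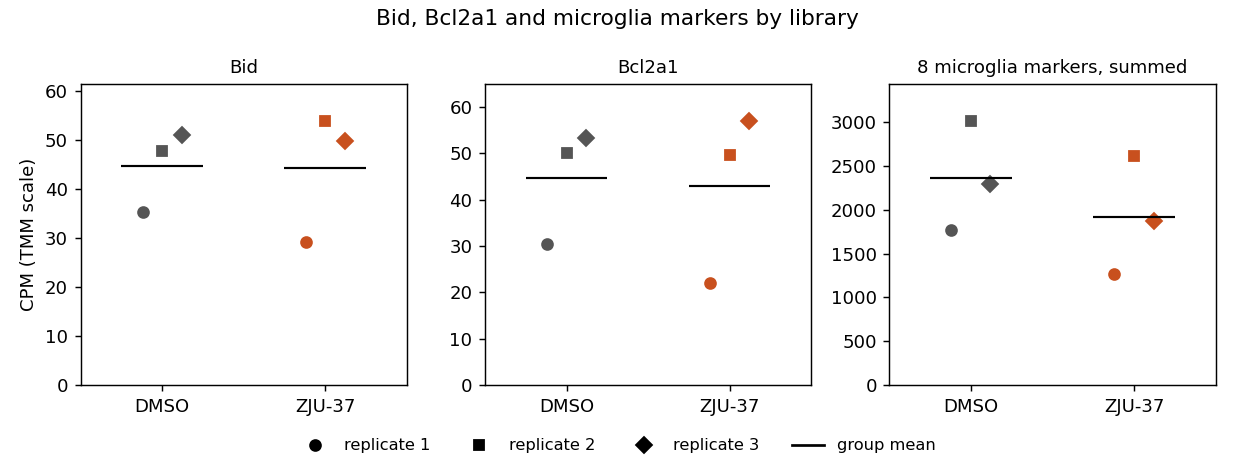
Bid, Bcl2a1 and the sum of 8 microglia markers in CPM (TMM scale, vertical axes from 0), with 1 point per library, shaped by replicate number, and a line at the group mean. Replicate 1 is the lowest library of both groups in all 3 panels.

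Among the effectors, Bax had higher values with ZJU-37 by a small and even amount. BAX is a cytosolic protein that moves to mitochondria and builds the pore (gene on chromosome 1, 101451802 to 101457207, minus strand). Its expression was 119, 124 and 118 CPM with DMSO and 137, 137 and 135 CPM with ZJU-37, with no overlap. The means were 120 ± 2.93 CPM and 136 ± 1.43 CPM, a log2 fold change of 0.18 (95% interval 0.06 to 0.30, adjusted p = 0.0627 from the edgeR test). With the replicate block the log2 fold change was 0.18 as well and the adjusted p-value 0.0208 in edgeR. The fold was 1.13, and the upper end of its interval was 1.23. Bak1 (chromosome 20, 5609625 to 5618260, minus strand) encodes BAK, the effector that resides in the outer mitochondrial membrane. It had 76.5, 79.9 and 77.1 CPM with DMSO and 72.3, 75.3 and 77.3 CPM with ZJU-37, a log2 fold change of -0.05 (95% interval -0.19 to 0.08, edgeR adjusted p = 0.596). The groups overlapped for Bak1. The difference between the responses of Bax and Bak1 was not tested.

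Of the pro-survival genes, Bcl2 (chromosome 13, 26605426 to 26769374, minus strand) was the least abundant member. It had 3.51, 2.99 and 2.97 CPM with DMSO and 4.38, 4.36 and 4.67 CPM with ZJU-37, which rest on between 48 and 113 counts. All ZJU-37 libraries were above all DMSO libraries. The means were 3.16 ± 0.302 CPM and 4.47 ± 0.173 CPM, a log2 fold change of 0.50 with an unadjusted 95% interval of 0.11 to 0.90 and an adjusted p-value of 0.0935 in edgeR. Bcl2 was called in 0 of 17 alternative analyses, and its log2 fold change stayed above 0 in all 17.

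Bcl2l1, which encodes BCL-XL, was the most abundant of the pro-survival genes analysed. Its expression was 137, 143 and 161 CPM with DMSO and 96.1, 138 and 135 CPM with ZJU-37. ZJU-37 replicate 1 stood below all other libraries, and ZJU-37 replicate 2 lay inside the range of the DMSO group. The log2 fold change was -0.25 (95% interval -0.61 to 0.10, edgeR adjusted p = 0.327). Without ZJU-37 replicate 1 it was -0.09, and with the replicate block the adjusted edgeR p-value was 0.0522. The annotated span of Bcl2l1 (chromosome 3, 148259596 to 148313810, minus strand, build not named) contains a pseudogene on the other strand, LOC108350502, with between 229.7 and 317 CPM in a library, above the level of Bcl2l1. The sources used here do not say whether reads were counted by strand, so the count of Bcl2l1 is uncertain. The other 7 members overlap no other gene of the table.

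**Figure D3:**
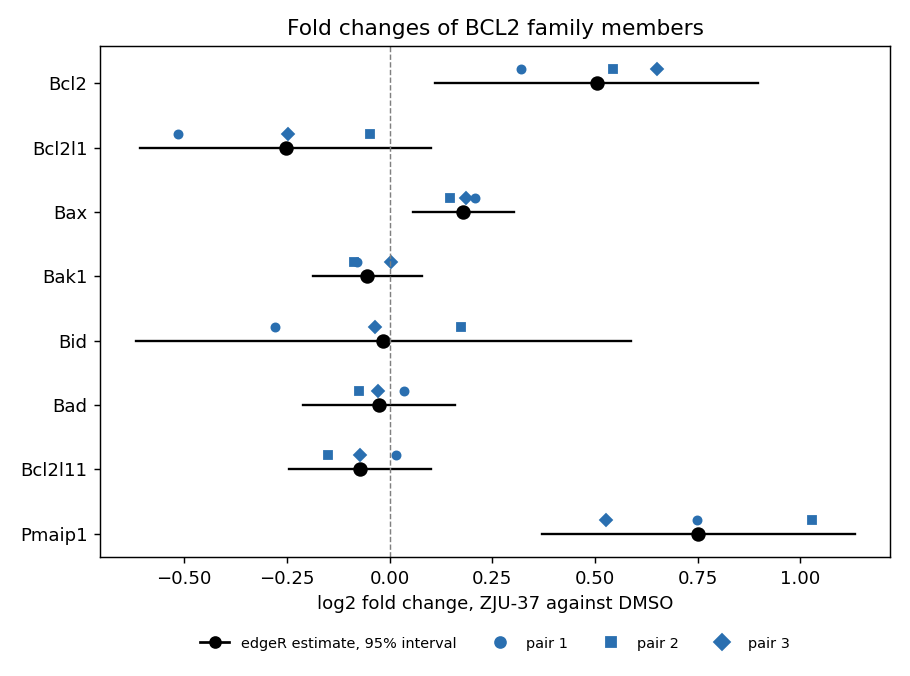
Log2 fold change of each member, ZJU-37 against DMSO. Black points and bars are the edgeR estimate with its 95% interval, not adjusted for the number of genes, and blue symbols are the log2 differences within the pairs of replicates 1, 2 and 3. The bars of Bcl2, Bax and Pmaip1 lie above 0, and that of Bid is the widest.

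Levels of different genes were compared per kilobase of the gene length in the table. Bax was the most abundant member in every library, with 94.2 ± 2.30 CPM per kb in the DMSO group and 107 ± 1.12 CPM per kb in the ZJU-37 group. Bad (43.4 ± 3.25 CPM per kb in the DMSO group), Bak1 (38.4 ± 0.910 CPM per kb) and Bcl2l1 (35.7 ± 2.95 CPM per kb) followed. Bak1 and Bcl2l1 overlapped in the DMSO group and changed places in DMSO replicate 3, so that their order is within the spread. The other neighbours in the order did not overlap within the DMSO group. Bid (22.5 ± 4.14 CPM per kb) came next, before Bcl2l11 (6.67 ± 0.444 CPM per kb). Pmaip1 and Bcl2 were the least abundant, at 2.22 ± 0.391 and 1.54 ± 0.147 CPM per kb in the DMSO group and 3.73 ± 0.0761 and 2.17 ± 0.0839 CPM per kb in the ZJU-37 group. The order Bid, Bcl2l11, Pmaip1, Bcl2 held in all 6 libraries. Bax alone made up between 37.0% and 45.9% of the summed level of the 8 members in a library, and Pmaip1 between 0.716% and 1.63%. The fold change that passed the test was thus that of a gene near the bottom of the family in transcript level.

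**Figure D4:**
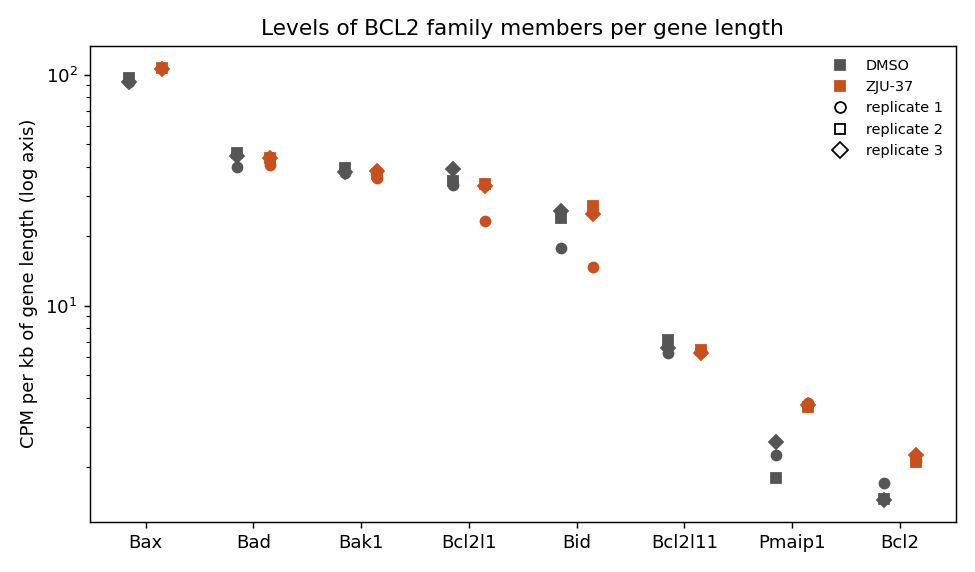
Level of each member in CPM per kilobase of gene length (log axis), ordered by the mean of the DMSO group, with 1 point per library, coloured by group and shaped by replicate number. Bax is highest in all 6 libraries, and Pmaip1 and Bcl2 are lowest.

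The 2 pro-survival genes analysed, Bcl2 and Bcl2l1, summed to 35.1, 36.1 and 40.4 CPM per kb with DMSO and to 25.5, 35.7 and 35.1 CPM per kb with ZJU-37. The 6 pro-death genes summed to 197, 215 and 210.2 CPM per kb in the DMSO libraries and to 209, 225 and 222 CPM per kb in the ZJU-37 libraries. Both sums overlapped between the groups. Their ratio was 0.178, 0.168 and 0.192 in the DMSO libraries and 0.122, 0.158 and 0.158 in the ZJU-37 libraries, lower in every ZJU-37 library than in any DMSO library (means 0.179 ± 0.0123 and 0.146 ± 0.0208, SD, n = 3 libraries each). This ratio lacks Mcl1 and Bbc3 and follows its most abundant members, among them Bcl2l1, whose count is uncertain. Without Bcl2l1 and Bax, Bcl2 was the only pro-survival gene left, and the direction was the opposite. That ratio was 0.0137 ± 0.00238 in the DMSO group and 0.0195 ± 0.00152 in the ZJU-37 group. The ratios are descriptions and were not tested.

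Among other BCL2 family proteins, the effector gene Bok rose and the mitophagy receptor genes Bnip3 and Bnip3l fell. Of 15 listed genes, 14 were found and 11 were tested. Of these 11, 1 was higher, 2 were lower and 8 did not pass the adjusted threshold in edgeR. Over all tested genes, 9.43% were higher and 5.58% lower. The median log2 fold change of the list was -0.06, against -0.03 for all tested genes. Bok, which encodes an effector related to BAX and BAK, rose from 27.1, 24.4 and 22.9 CPM with DMSO to 47.5, 38.6 and 42.4 CPM with ZJU-37. The log2 difference was 0.79 ± 0.11 (standard error, edgeR adjusted p = 0.0035), and the groups did not overlap. Bnip3, which encodes a mitophagy receptor of the outer mitochondrial membrane and is known as a hypoxia-responsive gene, fell from 112, 86.1 and 78.7 CPM to 56.7, 59.7 and 50.01 CPM, a log2 fold change of -0.73 (adjusted p = 0.0171 in edgeR, and 0.0591 without ZJU-37 replicate 3). Its paralogue Bnip3l, also a mitophagy receptor, fell from 126 ± 6.02 CPM to 98.4 ± 0.140 CPM, a log2 fold change of -0.36 (edgeR adjusted p = 0.00759). The pro-survival genes Bcl2l2 and Bcl2a1 had log2 fold changes of 0.04 and -0.06 (adjusted p = 0.753 and 0.942, edgeR). With the replicate block 1 gene of the list was called higher and 4 lower, beside 16.2% and 15.9% of all tested genes. The added lower genes were Bcl2l12 and Bmf. The genes Bcl2l10, Bcl2l15 and Bik did not pass the filter, with means of at most 0.248 CPM, and Hrk was not analysed here.

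Downstream of mitochondria, Birc5 and Diablo rose, and Casp9 and Apaf1 did not pass the test. Of 18 genes for the apoptosome, caspases and inhibitor of apoptosis proteins, 17 were tested, 2 were higher and 0 were lower in edgeR. Over all tested genes, 9.43% were higher and 5.58% lower. With the replicate block 4 genes of the list were higher and 2 lower, beside 16.2% and 15.9% of all tested genes. At an unadjusted p-value under 0.05, 5 were higher and 2 lower (16.2% and 12.5% of all tested genes), and 6 and 5 with the block (20.3% and 22.2% of all tested genes). The list median was -0.03 on the log2 scale, against -0.03 for all tested genes. The initiator Casp9 had 33.3 ± 1.31 CPM and 29.2 ± 4.74 CPM and the apoptosome scaffold Apaf1 49.3 ± 2.90 CPM and 54.6 ± 1.67 CPM in the DMSO and the ZJU-37 group (SD, n = 3 libraries each, adjusted p = 0.379 and 0.205 in edgeR). Cycs, which encodes cytochrome c and has many processed copies in the genome that make its counts uncertain, had a log2 fold change of 0.06 (edgeR adjusted p = 0.826). Birc5, which encodes survivin and acts mainly in chromosome segregation, rose from 33.7 ± 1.85 CPM to 75.1 ± 6.98 CPM, 1.16 on the log2 scale (edgeR adjusted p = 4.73e-04). Diablo, whose product SMAC leaves mitochondria and blocks inhibitor of apoptosis proteins, rose from 74.7 ± 2.91 CPM to 92.1 ± 5.03 CPM, a log2 fold change of 0.30 (adjusted p = 0.0237 in edgeR). The call of Diablo was lost without DMSO replicate 2, DMSO replicate 3 or ZJU-37 replicate 3, with an adjusted edgeR p-value of at most 0.0970. Casp6 had 0 counts in all 6 libraries.

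In the death receptor list, 9 of 10 genes were tested, and 0 were called higher or lower in edgeR. Over all tested genes, 9.43% were higher and 5.58% lower. At an unadjusted p-value under 0.05, 1 gene of the list was higher and 0 were lower, beside the 16.2% and 12.5% of all tested genes. With the replicate block 2 were higher and 2 were lower, with and without adjustment. The block's shares of all tested genes were 16.2% and 15.9% with adjustment, and 20.3% and 22.2% without. With DESeq2 1 gene of the list was higher after adjustment. Fadd, the adaptor that recruits caspase-8 and a gene singled out after its values were seen, had 30.9 ± 3.86 CPM in the DMSO group and 40.5 ± 2.53 CPM in the ZJU-37 group, with an adjusted edgeR p-value of 0.0561, and 0.00458 with the block. Ripk1, which encodes the target of ZJU-37 and was also named after its values were seen, had 55.2 ± 8.51 CPM and 55.7 ± 5.83 CPM (adjusted p = 0.970, edgeR).

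Among 23 tested regulators of BCL2 family genes and proteins, 2 were higher and 3 were lower in edgeR. The shares of all tested genes were 9.43% and 5.58%. The list median was 0.02 on the log2 scale, against -0.03 for all tested genes. Foxo3 encodes a forkhead factor that activates Bcl2l11 and Bbc3. It fell from 43.6 ± 1.76 CPM to 36.2 ± 0.609 CPM, a log2 fold change of -0.27 (adjusted p = 0.0324 in edgeR). The call of Foxo3 was lost when any 1 of the 6 libraries was left out, with adjusted edgeR p-values up to 0.117. Pim3, which encodes a kinase that can phosphorylate BAD, fell from 96.3 ± 10.3 CPM to 39.6 ± 4.84 CPM, a log2 fold change of -1.28 (edgeR adjusted p = 8.40e-04). Mapk3, which encodes the ERK1 kinase that can phosphorylate BIM, fell with a log2 fold change of -0.55 (edgeR adjusted p = 0.0124). Ywhah, which encodes an adaptor of the family that holds phosphorylated BAD in the cytosol, rose with a log2 fold change of 0.34 (adjusted p = 0.0184 in edgeR). This call was lost without any 1 of the DMSO replicates or ZJU-37 replicate 3 (at most 0.0825). Myc had a log2 fold change of 0.18 (adjusted p = 0.132 in edgeR). E2f1 was not analysed here.

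Of 15 tested mitochondrial and endoplasmic reticulum partners of the family, 2 were higher and 2 were lower in edgeR. The shares of all tested genes were 9.43% and 5.58%. The list median was -0.12 on the log2 scale, against -0.03 for all tested genes. Itpr2, which encodes a calcium release channel of the endoplasmic reticulum of the type bound by BCL2, fell from 181 ± 16.9 CPM to 94.4 ± 5.05 CPM, a log2 fold change of -0.94 (edgeR adjusted p = 8.03e-04). Bcap31, an endoplasmic reticulum protein cleaved by caspase-8, fell with a log2 fold change of -0.39 (adjusted p = 0.0373 in edgeR, up to 0.129 and above 0.05 in each fit with 1 library left out). Mfn2, a mitochondrial fusion gene, rose with a log2 fold change of 1.06 (adjusted p = 0.0421 in edgeR, lost without DMSO replicate 2 or 3 or ZJU-37 replicate 2 or 3, up to 0.133). Mff, a receptor for the fission machinery, had 3.21, 2.15 and 2.28 CPM with DMSO and 7.03, 37.1 and 20.4 CPM with ZJU-37. Its log2 fold change of 3.09 had an adjusted p-value of 0.0197 in edgeR and of 0.123 with the replicate block, and its call was lost without any 1 of the DMSO replicates or ZJU-37 replicate 3 (up to 0.0867). The voltage-dependent channels Vdac1, Vdac2 and Vdac3, of which VDAC2 binds BAK and BAX, had log2 fold changes of 0.02, -0.04 and 0.02 (adjusted p = 0.883, 0.776 and 0.863, edgeR), and were named after their values were seen. With the replicate block 1 gene of the list was higher and 5 were lower, beside 16.2% and 15.9% of all tested genes.

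**Figure D5:**
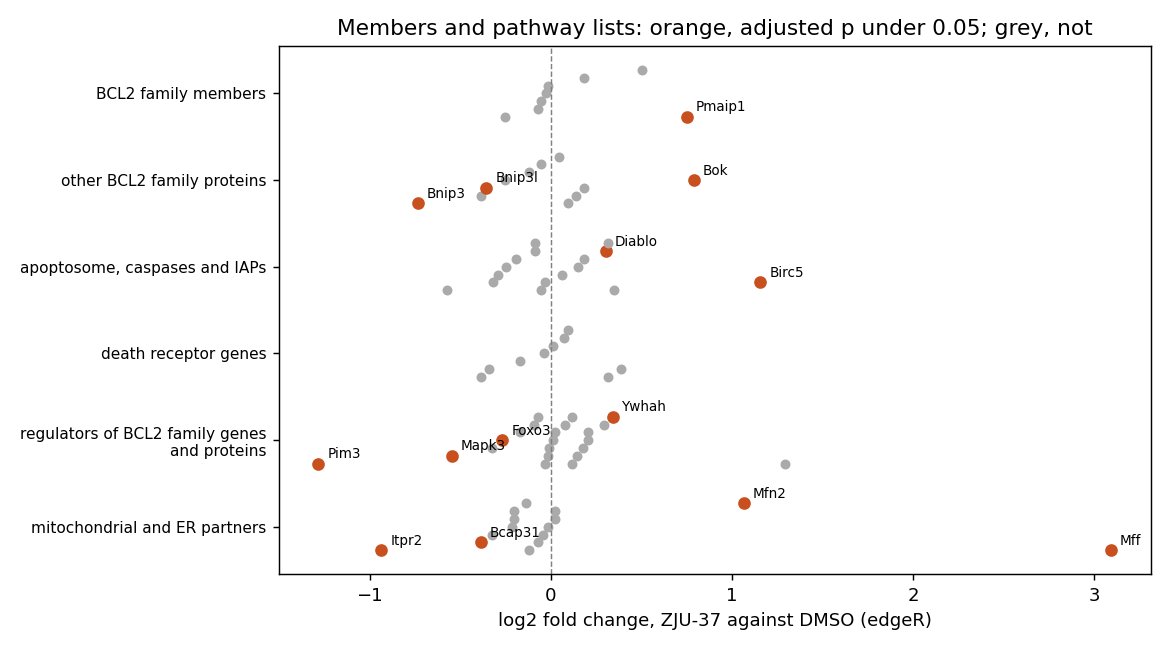
Log2 fold change from edgeR of the 8 members and of the tested genes of 5 lists of the pathway, less those not reported here. Each point is a gene, orange and named where the adjusted p-value was under 0.05 and grey otherwise, and the vertical place within a list has no meaning. Pmaip1 is the orange point among the members, and no gene of the death receptor list is orange.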

How the data were processed

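Read counts per gene of 6 libraries (3 DMSO, 3 ZJU-37) were analysed. Per the labels and the Methods, the authors aligned reads with HISAT2 2.0.5 and deposited raw counts from featureCounts 1.5.0, and their processing notes name StringTie 1.3.3b. The genome build and strand setting are not given in the sources used here. The authors also deposited FPKM values, made from counts, gene length and library totals, and columns of their own DESeq2 comparison, which were not used.

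Genes were filtered with filterByExpr, scaled by TMM and tested across all genes by the quasi-likelihood method of edgeR 4.0.16 with robust estimation (R 4.3.3), with Benjamini-Hochberg adjustment and a threshold of 0.05. CPM used TMM-scaled library sizes, and levels per kb the gene length of the table. Alternatives were DESeq2 1.42.0, limma 3.58.1 (voom, or on log2 FPKM with pseudocount 1 or 0.1), other normalizations and filters, no robust estimation, the replicate block and leaving out each library. The code was tested on simulated data.

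Library totals of 13935865 to 24097927 counts limit precision, and the floor of 3 counts covers counting error only. Libraries of a group differed by at least 11.3 chi-square units per degree of freedom, so none was a duplicate. The replicate numbers come from the sample titles. Across genes, the departure of a library from its group mean correlated with that of the library bearing its number in the other group (r = 0.46, 0.35 and 0.37), so the numbers were taken to pair the libraries. The members and gene lists were chosen with earlier results of these data known. Named genes were all members found, tested other BCL2 family genes, up to 6 called genes per list, Casp9, Apaf1, Cycs, Foxo3 and Myc, and exceptions stated as such. Some listed genes count towards their lists but are not reported here by name. March5 in the table was read as Marchf5 through a RefSeq synonym. Promoters were matched by symbol for 8 of 10 names.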

Additional observations from a re-analysis of the deposited data

How the results depend on the processing

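The log2 fold change of Pmaip1 was above 0 in all 17 alternatives (0.56 to 0.88), with an adjusted p-value under 0.05 in 12 of them and at most 0.0718. Members called higher numbered 2 with library size only as the normalization, 2 with the replicate block (Bax was added in both) and 0 to 1 with 1 library left out, and members called lower 0 throughout. The signs of Bid and Bad, which were not called, turned in 4 and 3 of 17 alternatives. Over the 83 tested members and list genes, signs turned in 46 values of 20 genes, none of them with a call. Counting depth limits Bcl2 and Pmaip1 most.

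With the replicate block, 2371 genes were called higher and 2334 lower, or 16.2% and 15.9% of all tested genes. Of the calls with the block 50.4% were higher. Without it, 1383 genes were called higher and 818 lower, so that 62.8% of calls were higher. The block gave 4 lower among other BCL2 family proteins, and 4 higher and 2 lower in the caspase list. It gave 2 and 2 in the death receptor list, 4 higher regulators, and 1 higher and 5 lower partners. Of the calls in the members and lists, the block ended that of Mff and of no other gene. With 1 library left out, the counts over all genes were 858 to 1259 higher and 374 to 668 lower. The lists then had 1 to 2 lower other BCL2 family proteins, 1 to 2 higher caspase list genes, 0 to 1 higher regulators, 0 to 2 higher partners and 1 to 2 lower partners. No filter on low counts gave 1 higher death receptor gene, 1 higher regulator and 1 higher partner. DESeq2 gave 1 higher death receptor gene, limma on log2(FPKM + 1) 1 lower caspase list gene, and limma-voom 1 higher partner. DESeq2 size factors, upper quartile factors and no robust estimation each gave 1 higher regulator. Fits that leave out a library have fewer samples, and the cause of the other shifts was not tested.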
